A study of Nasonia vitripennis with 6 samples.

Results

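Every protein that a gland cell secretes passes through the endoplasmic reticulum (ER). The signal recognition particle (SRP) binds the signal peptide of a nascent chain and brings the ribosome to a receptor on the ER membrane, the chain enters through the Sec61 channel, and the signal peptidase complex removes the signal peptide. Inside the ER an oligosaccharide built on the lipid dolichol is transferred to asparagine residues, disulfide isomerases form and rearrange disulfide bonds, and chaperones and lectins such as calnexin retain the chain until it is folded. The venom gland (VG) of a parasitoid wasp is a secretory gland that makes the venom proteins injected into the host, and the ovary is the neighbouring reproductive tissue.

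The genes of this machinery were compared between the VG and the ovary of the jewel wasp *Nasonia vitripennis*, strain Lab II. Members were the genes whose deposited annotation contained a term for the signal recognition particle, signal peptidase, Sec61, the translocon, oligosaccharyl, disulfide isomerase, the endoplasmic reticulum, endoplasmin, calnexin or mannosyl. The terms picked out 68 of 36329 genes, none of which was among the 79 venom protein encoding genes listed by the study. The tissues came from mated females 1 to 3 days old that had been exposed to hosts, and each tissue had 3 replicates, each pooling tissue from 40 to 50 individuals. A replicate therefore averages over many wasps, and no value belongs to a single animal.

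The values are means that the authors made from the 3 libraries of a tissue with DESeq, that is, of reads divided by a size factor per library, without division by gene length. They are called normalised counts here, and levels are compared between tissues and not between genes. Log2 ratios divide the mean of the VG by that of the ovary, so that a positive value is higher in the VG. A gene is called higher in a tissue where its mean there was at least 2-fold that in the other, with a mean of both tissues of at least 10. This is a threshold of size and not a test, because the deposited means carry no replicate error. In bulk tissue, fewer cells of a type and less RNA per cell cannot be told apart.

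The tissue labels were checked against marker genes. Of the 79 venom protein encoding genes, 76 passed the filter and 72 of these were higher in the VG, with a median log2 ratio of 13.67, while 18 of 20 germline genes were higher in the ovary (median -3.64). The germline genes summed to 9411 normalised counts in the VG against 87576 in the ovary. Of this VG sum, 3929 came from a keyword hit annotated as a bicaudal D-related protein (Nasvi2EG005014), the only gene of the list higher in the VG. Of 15 muscle genes past the filter, 3 were higher in the VG and 1 was higher in the ovary (median log2 ratio 0.37), and the muscle list summed to 10962 in the VG against 9420 in the ovary, leaving out a non-muscle myosin that its keywords also took. Of 28 nerve genes, 15 (53.6%) were higher in the VG and 7 were higher in the ovary (median 1.22), with sums of 9681 in the VG against 10035 in the ovary. Of 8 fat body and haemolymph genes, 5 were higher in the VG and 2 were higher in the ovary (median 2.78), with sums of 9202 in the VG against 4642 in the ovary. Over all genes past the filter, 31.1% were higher in the VG and 34.2% were higher in the ovary. The part of these other cells in the results was not tested. The venom protein encoding genes took 53.1% of all normalised counts in the VG and 0.195% in the ovary, and all genes summed to 55159269 in the VG against 10662081 in the ovary. Scaling both tissues to the same total therefore lowers every log2 ratio by 2.37, and scaling to the same total without the venom protein encoding genes lowers it by 1.28. Such a shift moves members and all genes alike and leaves the order of the members as it is.

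Most of the machinery had higher normalised counts in the VG. Of the 68 members, 5 had no read, 2 had a mean under the filter, and 61 passed it. Of these 61, 42 (68.9%) were at least 2-fold higher in the VG, against 31.1% of the 10689 genes past the same filter, and 22 were at least 4-fold higher, against 20.8% of all genes. A further 14 differed by less than 2-fold, and 5 (8.20%) were at least 2-fold higher in the ovary, against 34.2% of all genes. These 5 include a gene without VG reads (Nasvi2EG004461) that passed the filter through its ovary reads alone. The members' median log2 ratio was 1.60, against -0.16 over all genes past the filter, and 32 of the 61 lay above the upper quartile of all genes, a log2 ratio of 1.54. On column totals the members' median was -0.77, against -2.53 for all genes, and on totals without the venom protein encoding genes it was 0.32, against -1.44. A scaling adds the same constant to every log2 ratio, so that the distance of the members from other genes is fixed. The side of 0 on which a member lay depended on the scaling. On the DESeq scale 50 of 61 members had a log2 ratio above 0, against 4978 of the 10689 genes past the filter. On totals without venom genes 36 members did, against 2973 of all genes. On totals 16 members did, against 1910 of all genes. The members together made up 1.09% of the VG total and 1.31% of the ovary total. Without the venom protein encoding genes in the total, they made up 2.32% in the VG and 1.31% in the ovary.

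**Figure D1:**
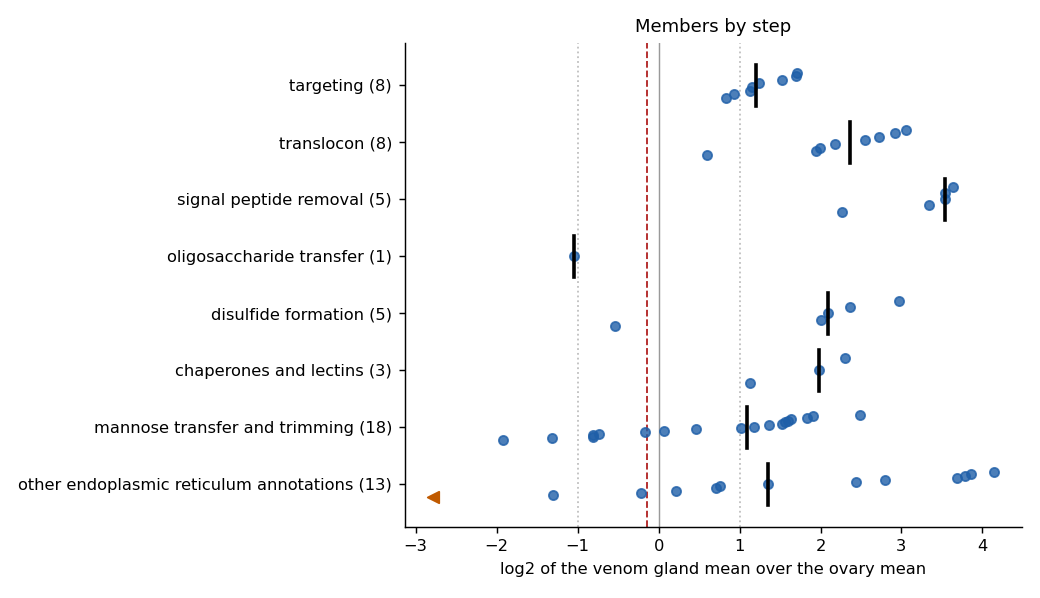
Log2 ratio of VG to ovary means (horizontal axis, DESeq scale) for the 61 members past the filter, by step from top to bottom, with the number of members in parentheses. Points are genes, black bars are step medians, the triangle is a bound for a gene without VG reads, dotted lines mark 2-fold differences, the grey line is 0 and the dashed line is the median of all genes with reads in both tissues (-0.14). Signal peptide removal has the highest median (3.53) and the only member of oligosaccharide transfer lies below -1. Scaling to column totals would move all points to the left by 2.37, and scaling to totals without venom genes by 1.28.

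The steps differed. All 8 targeting genes had higher normalised counts in the VG on the DESeq scale, 6 of them by at least 2-fold and none by 4-fold, with a median log2 ratio of 1.20 that became -0.08 on totals without venom genes and -1.17 on totals. The particle's 6 proteins had a median of 1.14 and the receptor's 2 subunits a median of 1.61. SRP19 (Nasvi2EG008819), which helps the particle's RNA to fold for SRP54, had a mean of 2467 normalised counts in the VG and 757 in the ovary, a 3.26-fold difference. The receptor alpha subunit (Nasvi2EG020757), the GTPase that docks the particle at the membrane, had 4206 in the VG and 1292 in the ovary (3.25-fold), and the beta subunit (Nasvi2EG007910), which anchors it, 1166 in the VG and 407 in the ovary (2.87-fold). These 3 genes stood highest within the step, and SRP68, SRP9 and SRP14 followed with log2 ratios of 1.24, 1.16 and 1.12. SRP72, which binds the particle's RNA together with SRP68, had 3720.5 in the VG and 1944 in the ovary and, at 1.91-fold, was the nearest member short of the 2-fold line on the VG side. SRP54 (Nasvi2EG013649), the GTPase that binds the signal peptide itself, had the lowest ratio of the step, with 2254 in the VG and 1261 in the ovary (1.79-fold).

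The reads of SRP14 (Nasvi2EG020270), which with SRP9 slows elongation while the ribosome is being docked, could be resolved for the single VG libraries. These libraries are named a, b and c here because they cannot be tied to the replicate numbers. Its normalised counts were 659.6, 1101 and 809 in VG libraries a, b and c, against an ovary mean of 393. All 3 VG libraries lay above the ovary mean, and without library b the log2 ratio was 0.90, under the 2-fold line.

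The translocon differed more than targeting. Its 8 genes had a median log2 ratio of 2.37 (1.08 on totals without venom genes, -0.01 on totals), and 7 of them were at least 2-fold higher in the VG. Sec61 alpha (Nasvi2EG014135), which forms the channel, had a mean of 42571 normalised counts in the VG against 5099 in the ovary, the largest difference of the step at 8.35-fold. Sec61 gamma (Nasvi2EG000271), which clamps the channel, had 5551 in the VG and 951 in the ovary (5.84-fold), and Sec61 beta (Nasvi2EG027746) 13969 in the VG and 3072 in the ovary (4.55-fold). A second gene model annotated as Sec61 alpha (Nasvi2EG014154) had 3018 in the VG and 1992 in the ovary, a 1.51-fold difference. The channel's 3 subunits thus differed by more than 4-fold and the second alpha model by less than 2-fold. How reads from sequence shared by the 2 alpha models affected their counts was not tested.

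The 4 subunits of the translocon-associated protein complex (TRAP), which sits beside Sec61 and aids the entry of some signal peptides, were all higher in the VG on the DESeq scale. TRAP beta (Nasvi2EG010374) had 22714 normalised counts in the VG and 2999 in the ovary (7.57-fold). TRAP gamma (Nasvi2EG011405) had 17567 in the VG and 2669.5 in the ovary (6.58-fold). TRAP delta and TRAP alpha had ratios of 3.99-fold and 3.84-fold. The median log2 ratio of the complex was 2.36, beside 2.37 for the 4 Sec61 models. On totals these medians were both -0.01.

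**Figure D2:**
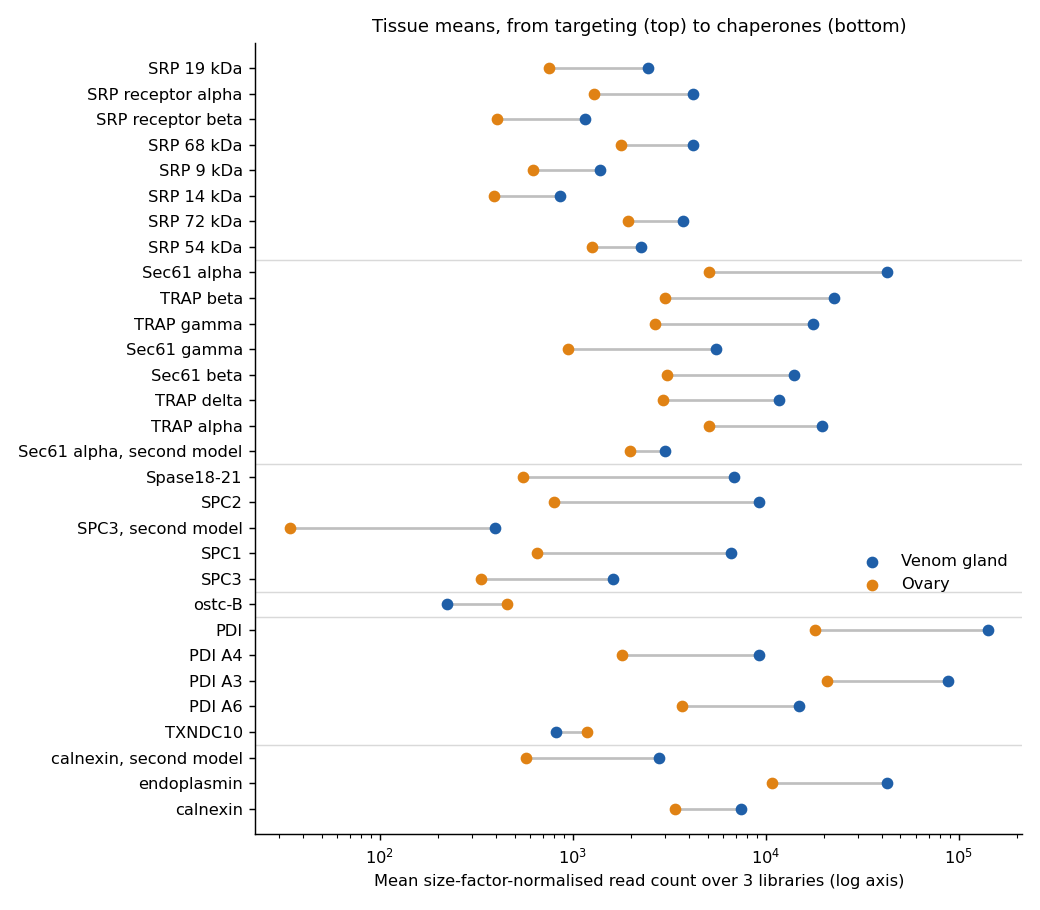
Mean normalised counts (horizontal log axis) in the VG (blue) and the ovary (orange) for the 30 members past the filter from targeting to chaperones and lectins, with grey lines joining the 2 tissue means of a gene and pale lines between steps. On this DESeq scale the VG mean is the higher one except for ostc-B and TXNDC10; scaling to column totals would move each blue point to the left by a log2 of 2.37 relative to its orange point.

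Signal peptide removal was the step with the largest difference. All 5 members were more than 4-fold higher in the VG, with a median log2 ratio of 3.53, and the median stayed above 0 under each scaling (2.25 on totals without venom genes and 1.16 on totals). Spase18-21 (Nasvi2EG037351), the catalytic subunit, had a mean of 6863 normalised counts in the VG and 550.0 in the ovary, a 12.5-fold difference. Signal peptidase complex subunit 2 (Nasvi2EG013160) had 9223 in the VG and 797 in the ovary (11.6-fold), and subunit 1 (Nasvi2EG016413), a small membrane subunit, 6612 in the VG and 655 in the ovary (10.1-fold). Both are non-catalytic subunits, and their ratios lay close to that of the catalytic one.

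Subunit 3, which is needed for the activity of the complex in yeast, was annotated to 2 gene models. The first (Nasvi2EG033667) had 1611 normalised counts in the VG and 335 in the ovary, and at 4.80-fold it had the lowest ratio of the step. The second (Nasvi2EG035159) had reads that could be resolved in both tissues: 315, 462 and 418 in VG libraries a, b and c, against 33.3, 35.2 and 34.8 in the 3 ovary libraries. The lowest VG library lay far above the highest ovary library, and the fold difference of the means was 11.6. Leaving out each VG library in turn gave log2 ratios of 3.41 to 3.68.

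Only 1 member carried the term oligosaccharyl, and it ran the other way. The subunit ostc-B (Nasvi2EG012929), an accessory subunit of the oligosaccharyltransferase that in mammals joins it to the translocon, had a mean of 222 normalised counts in the VG and 458 in the ovary, a log2 ratio of -1.04. At 2.06-fold it was the member just past the 2-fold line on the ovary side. Its VG libraries held 145, 417 and 105. Library b was close to the ovary mean and libraries a and c were far below it, and the log2 ratio was -0.81 without library a, -1.88 without library b and -0.70 without library c. The other subunits of the enzyme are annotated under another name and are described with the other genes of the pathway.

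Disulfide formation had 5 members, 4 of them more than 4-fold higher in the VG. The median log2 ratio was 2.09 (0.81 on totals without venom genes and -0.28 on totals). The protein disulfide isomerase PDI (Nasvi2EG000249) had a mean of 141359.9 normalised counts in the VG and 18019 in the ovary, a 7.85-fold difference and the largest of the step. PDIA4 (Nasvi2EG013749) had 9262 in the VG and 1799 in the ovary (5.15-fold). PDIA3 (Nasvi2EG018623), the isomerase that works with calnexin on glycoproteins, had 88472 in the VG and 20788 in the ovary (4.26-fold). PDIA6 (Nasvi2EG013293) had 14811 in the VG and 3674 in the ovary (4.03-fold).

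The fifth isomerase, TXNDC10 (Nasvi2EG001331), a membrane-bound thioredoxin domain protein, stood apart from the other 4 with 821 normalised counts in the VG and 1188 in the ovary, a log2 ratio of -0.53. Its VG libraries held 595, 1341 and 526. Library b lay above the ovary mean and libraries a and c below it, and without library b the log2 ratio was -1.08, past the 2-fold line on the ovary side. The gene annotated as ER oxidoreductin-1 (Nasvi2EG004353), which reoxidises PDI in other animals, had no read in any library.

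Chaperones and lectins had 3 members past the filter, all at least 2-fold higher in the VG on the DESeq scale, with a median log2 ratio of 1.98 (0.70 on totals without venom genes and -0.39 on totals). Endoplasmin (Nasvi2EG014139), the Hsp90 of the ER, had 42467 normalised counts in the VG and 10776 in the ovary (3.94-fold). Of the gene models annotated as calnexin, the membrane lectin that holds glycoproteins while they fold, one (Nasvi2EG012769) had 2801 in the VG and 570.0 in the ovary (4.91-fold) and another (Nasvi2EG001077) 7432 in the VG and 3392 in the ovary (2.19-fold). The third model (Nasvi2EG024139) had no VG read and 2 ovary reads, both means being at or under the level of 3 reads, so that no ratio is given.

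Mannose transfer and trimming was the largest and most mixed step. Of 23 members, 4 had no read, 1 was under the filter and 18 passed it, of which 10 were at least 2-fold higher in the VG, 6 differed by less and 2 were at least 2-fold higher in the ovary. The median log2 ratio was 1.09 (-0.19 on totals without venom genes and -1.28 on totals). Of the enzymes that build the lipid-linked oligosaccharide, ALG2 (Nasvi2EG005984), which adds mannose on the cytosolic face of the ER, had 1599 normalised counts in the VG and 285 in the ovary, a 5.60-fold difference. It had the highest ratio of the step and the only one above 4-fold. ALG9 (Nasvi2EG023739), which adds mannose on the lumenal side, had 1277 in the VG and 358 in the ovary (3.56-fold). The annotated counterpart of ALG12 (Nasvi2EG011137) had 812, 926 and 763 in VG libraries a, b and c, against an ovary mean of 325. The VG libraries were close to each other and all above the ovary mean, a log2 ratio of 1.36. The gene annotated with the first mannose transfer onto the lipid, the reaction of ALG1 (Nasvi2EG018303), had no read.

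Dolichol-phosphate mannose is the mannose donor on the lumenal side, and both members annotated to its synthase had higher normalised counts in the VG on the DESeq scale. The synthase (Nasvi2EG022621) had 1431 in the VG and 484 in the ovary (2.96-fold). Its subunit 3 (Nasvi2EG001102) had 524, 975 and 683 in VG libraries a, b and c, against an ovary mean of 241. All 3 libraries lay above that mean, and the log2 ratio stayed between 1.33 and 1.78 when a VG library was left out.

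The trimming enzymes, which remove glucose and mannose from the transferred oligosaccharide, had ratios on both sides of 0. The ER mannosidase (Nasvi2EG007086) had 812, 1649.9 and 627 in VG libraries a, b and c, against an ovary mean of 332. All 3 VG libraries lay above the ovary mean, library b the furthest, and the log2 ratio of 1.63 became 1.11 without it. The alpha-mannosidase Nasvi2EG013530 had 1730.1 in the VG and 1258 in the ovary (1.38-fold). Glucosidase I (Nasvi2EG020542), which removes the first glucose, had 859.8, 1468 and 589 in the VG libraries, against an ovary mean of 1699. Every VG library lay below that mean, and the log2 ratio of -0.80, short of the 2-fold line, became -1.23 without library b.

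The transferases that branch N-glycans act later, in the Golgi, and matched the rule through the word mannosyl. Their median log2 ratio was 0.80 over 4 genes. The enzyme annotated with the activity of GnT I (Nasvi2EG018527), which starts branching, had 4045 in the VG and 1077 in the ovary (3.76-fold). The enzyme with the activity of GnT II (Nasvi2EG006714), which follows it, had 227, 173 and 136 normalised counts in the VG libraries, against 55.7, 74.9 and 55.2 in the ovary libraries. The groups did not overlap. That with the activity of GnT III (Nasvi2EG009914), which adds the bisecting residue in vertebrates, rested on 25 VG reads in all and had 17.2, 28.9 and 10.5 in the VG libraries, against 28.6, 33.6 and 36.5 in the ovary libraries. The VG libraries overlapped the ovary libraries by a narrow margin, in library b, and without library b the log2 ratio was -1.25, past the 2-fold line that the mean of all 3 did not reach (-0.81). The GnT IV counterpart (Nasvi2EG013827) had 240.2, 171 and 474 in the VG libraries, which lay on both sides of the ovary mean of 281.

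GPI mannosyltransferases build the lipid anchor of surface proteins, and their median log2 ratio was 1.01 over the 3 past the filter. An unnumbered enzyme (Nasvi2EG007769) had 562, 897 and 464 in VG libraries a, b and c, all above the ovary mean of 284, and a log2 ratio of 1.18 that became 0.85 without library b. GPI mannosyltransferase 2 (Nasvi2EG009893) was the member just past the 2-fold line on the VG side (2.02-fold). It had 311, 135 and 390.4 in the VG libraries, against 135, 132 and 147 in the ovary libraries. Library b lay among the ovary libraries and the other two VG libraries above them, and the log2 ratio fell under the 2-fold line without library a (0.93) or library c (0.69). GPI mannosyltransferase 4 (Nasvi2EG024981) had 153, 151 and 185 in the VG libraries, all below the ovary mean of 271. GPI mannosyltransferase 3 had 3 VG reads and 1 ovary read, under the filter, and GPI mannosyltransferase 1 had none.

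Both members of this step that were at least 2-fold higher in the ovary add mannose to other acceptors than N-glycans. POMT1 (Nasvi2EG001363), an O-mannosyltransferase that modifies dystroglycan, had 97.2, 127 and 94.1 normalised counts in the VG libraries, against an ovary mean of 401. Each VG library lay far below the ovary mean, a log2 ratio of -1.92. Its partner POMT2 (Nasvi2EG002965) had 242, 251 and 199 in the VG libraries, all near or below the ovary mean of 258. The counterpart of the *Drosophila* gene egghead (Nasvi2EG009130), which in flies acts on glycolipids, had 160.1, 119.9 and 199 in the VG libraries, against an ovary mean of 399. All of these were below the ovary mean, with a log2 ratio of -1.32, and leaving out any VG library kept both POMT1 and egghead past the 2-fold line.

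The other genes annotated to the ER held the largest differences in both directions, where that toward the ovary is a bound for a gene without VG reads. Of 13 past the filter, 7 were at least 2-fold higher in the VG and 2 in the ovary, with a median log2 ratio of 1.35 (0.07 on totals without venom genes and -1.02 on totals). Herpud2 (Nasvi2EG002137), a ubiquitin domain protein of the ER membrane whose mammalian relative takes part in the degradation of misfolded proteins, had 7256 normalised counts in the VG and 409 in the ovary, a 17.7-fold difference. It was the largest of any member. ERGIC3 (Nasvi2EG023748) and ERGIC2 (Nasvi2EG018634), membrane proteins that cycle between the ER and the Golgi, had 14.5-fold and 6.95-fold differences, with 4659 and 4283 in the VG against 322 and 617 in the ovary. ERp29 (Nasvi2EG004183), a lumenal protein with the fold of a disulfide isomerase, had a VG mean of 1154, against 71.2, 89.9 and 89.1 in the ovary libraries (13.8-fold). SERP2 (Nasvi2EG010926), a small membrane protein related to the translocon-bound SERP1 of mammals, had 39232 in the VG and 3059 in the ovary (12.8-fold). ER lectin 1 (Nasvi2EG007450), which recognises trimmed glycans on proteins bound for degradation, had 5294 in the VG and 981 in the ovary (5.40-fold). These 6 genes are all more than 4-fold apart and remained above 0 under both scalings by totals.

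The remaining members of the group were closer or lower. ER metallopeptidase 1 (Nasvi2EG006669) had 419, 382 and 362 normalised counts in the VG libraries, against 148, 149.8 and 159.6 in the ovary libraries, without overlap. ER aminopeptidase 2 (Nasvi2EG015472) had 43.8, 82.2 and 31.4 in the VG libraries, against 31.7, 24.3 and 37.4 in the ovary libraries. The 2 sets overlapped, and the log2 ratio of 0.75 became 1.02 without library c. The calcium pump SERCA had 14293 in the VG and 8709.9 in the ovary (1.64-fold), SCAPER differed by 1.16-fold, and TER94 (Nasvi2EG008526), the ATPase that pulls proteins out of the ER membrane, had 14491 in the VG and 16912 in the ovary, a log2 ratio of -0.22. All 3 differed by less than 2-fold.

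Of the 2 members of this group that were higher in the ovary, CHERP (Nasvi2EG012951), named for calcium homeostasis of the ER, had 705, 571 and 735 in the VG libraries, all far below the ovary mean of 1651 (log2 ratio -1.30). A second model annotated as the transitional ER ATPase (Nasvi2EG004461) had no VG read and 22.4, 24.7 and 25.2 in the ovary libraries. Against a floor of 3 reads over the VG libraries, which is 3.49 normalised counts, it was at least 6.92-fold lower in the VG. This model passed the filter through its ovary reads alone, with a mean of both tissues of 12.06.

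The members with reads resolved in both tissues allow a view of the spread between libraries. There were 7 such members past the filter. All VG libraries lay above all ovary libraries for the second model of signal peptidase subunit 3, for the GnT II counterpart and for ER metallopeptidase 1. They overlapped for 3 genes and lay below for the second ER ATPase model, which had no VG read and passed the filter through the ovary alone. Over all 3687 genes resolved in both tissues and past the filter, the VG libraries lay above for 52.4% and below for 26.4%, so that 3 of 7 members above is not more than for other genes of this kind. An exact permutation test of 3 libraries against 3 cannot give a two-sided p below 0.10, and none was run. The abundant members, which carry most of the counts, could not be resolved, and their spread between libraries is not known here.

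VG library b stood apart from a and c in both directions. Over 4700 genes with VG means between 100 and 1000 it was the highest of the 3 libraries in 40.5% and the lowest in 45.7%. Among the 17 members in that range it was the highest in 10 (58.8%) and the lowest in 5, and among 22 other genes of the pathway it was the highest in 17 (77.3%). Muscle genes in the range were lowest in library b in 9 of 9. The median log2 of library b over library a was 0.19 for the members, 0.57 for the other genes of the pathway, -0.74 for muscle genes and -0.03 for all genes. The ovary libraries also differed in muscle genes. Over 3 muscle genes, ovary library b was the highest in 2, with a median log2 of 1.76 over library a and 1.75 over library c. For all genes these were -0.02 and 0.05. The letters do not pair VG with ovary libraries. The part of muscle or of other tissue in the libraries was not tested.

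**Figure D3:**
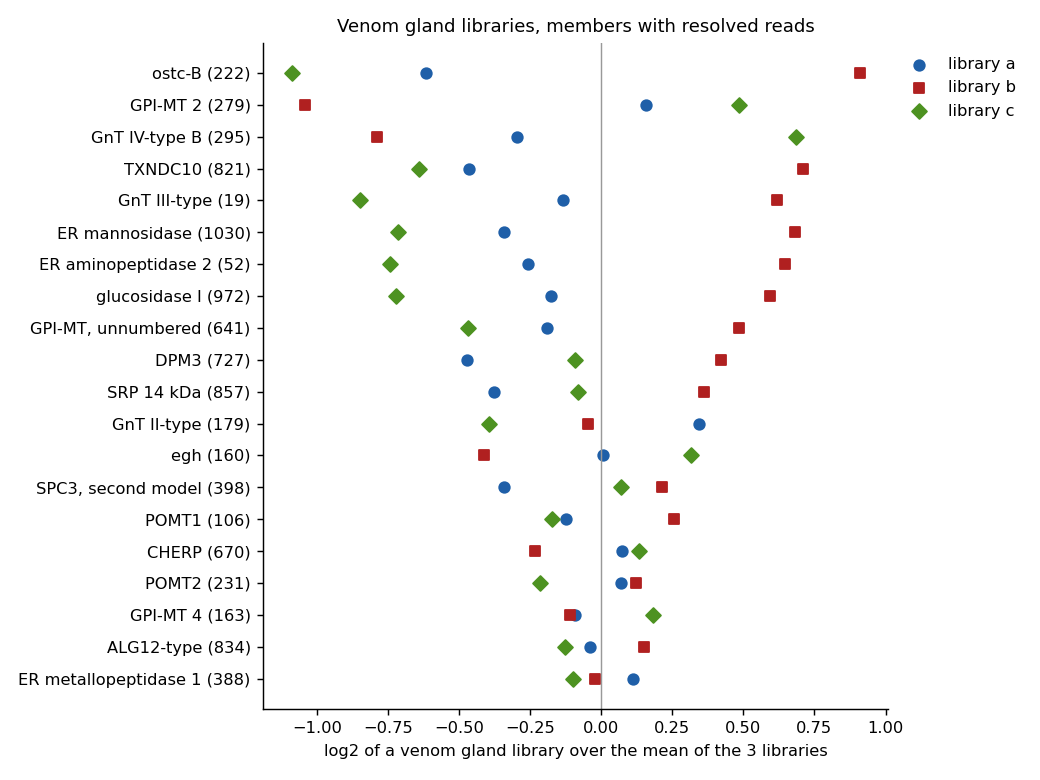
Log2 of each VG library over the mean of the 3 VG libraries (horizontal axis) for the 20 members past the filter with resolved VG reads, with the VG mean in parentheses, ordered by spread from the bottom up. Blue circles are library a, red squares library b and green diamonds library c. Library b is the rightmost point for ostc-B, TXNDC10, the ER mannosidase and glucosidase I, and ER metallopeptidase 1 has libraries close together (419, 382 and 362).

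A further 90 genes of the pathway whose annotation does not carry a term of the rule were taken from keyword lists. The lists go by annotation, so that some genes on them may act outside the ER. Of 73 past the filter, 41 (56.2%) were at least 2-fold higher in the VG, against 31.1% of all genes, and 12 (16.4%) were so in the ovary, against 34.2%. Their median log2 ratio was 1.51, beside 1.60 for the members. VG reads were resolved for 30 of the 73, and leaving out a VG library, library by library, gave 39 to 42 genes higher in the VG and 12 to 14 higher in the ovary. On totals without venom genes the median of the 73 genes was 0.23, and on totals it was -0.86. SEC62 (Nasvi2EG004795) and SEC63 (Nasvi2EG012615), partners of the channel in translocation after synthesis, had log2 ratios of 3.30 and 1.56. SEC62 had 14519 normalised counts in the VG, against 1478 in the ovary.

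The list of dolichol enzymes and oligosaccharyltransferase subunits had 18 genes past the filter, of which 12 (66.7%) were higher in the VG and 2 (11.1%) in the ovary (median log2 ratio 1.71). Without VG library b, 10 were higher in the VG, as dehydrodolichyl diphosphate synthase (Nasvi2EG004415) then had a log2 ratio of 0.04, against 1.11 with all libraries, and the N-acetylglucosaminephosphotransferase that starts the oligosaccharide (Nasvi2EG009912) one of 0.97, against 1.60. A glucosyltransferase of the lipid-linked oligosaccharide (Nasvi2EG009289), at 0.87 with all libraries, passed the 2-fold line without library a (1.10) or library c (1.02). In contrast to ostc-B, 6 of the 7 genes past the filter that were annotated as a glycosyltransferase subunit of the enzyme were at least 2-fold higher in the VG on the DESeq scale. A model annotated as the catalytic subunit STT3A (Nasvi2EG011249) had 19135 in the VG and 4032 in the ovary (4.75-fold). Subunit 1 (Nasvi2EG011512) had 11676 in the VG and 3518 in the ovary, and subunit 2 (Nasvi2EG022747) 27469 in the VG and 7458 in the ovary. DAD1 (Nasvi2EG023627), a small subunit, had 280.2, 378 and 352 in the VG libraries, against 90.6, 91.9 and 95.7 in the ovary libraries, without overlap. The highest ratio of the list was that of the gene annotated as magnesium transporter protein 1 (Nasvi2EG010840), whose mammalian counterpart is an oxidoreductase subunit of the same enzyme, with 18215 in the VG against 2043 in the ovary. The lowest was the counterpart of ALG10 (Nasvi2EG013333), which adds the last glucose to the oligosaccharide, with 15.3, 42.2 and 6.97 in the VG libraries, all far below the ovary mean of 189. A second STT3A model (Nasvi2EG027320) was also higher in the ovary, with 1309.6 in the VG and 2987 in the ovary.

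Keywords for further folding factors took 9 genes past the filter, among them thioredoxin domain proteins, such as TXNDC17, that are not named for the ER. Of the 9 genes, 5 (55.6%) were higher in the VG and none in the ovary on the DESeq scale. Their median log2 ratio was 1.16, and -0.12 on totals without venom genes. The highest was stromal cell-derived factor 2 (Nasvi2EG019454), with 7178 in the VG and 816 in the ovary, and the lowest TXNDC17 (Nasvi2EG003859), with 398, 593 and 401 in the VG libraries and an ovary mean of 439. The exchange factor SIL1 (Nasvi2EG003431), at 0.36, was past the line on the ovary side without VG library b (-1.05). The Hsp40 co-chaperone annotated as dnaJ B11 (Nasvi2EG019914) had 12052 in the VG and 1501 in the ovary. Of 13 genes taken by the keywords for glycoprotein quality control and degradation, 7 (53.8%) were higher in the VG and 3 (23.1%) in the ovary (median 1.37). The list also holds alpha-mannosidases that are not named for the ER. Among the 3 higher in the ovary was a gene annotated as lysosomal alpha-mannosidase (Nasvi2EG011999, log2 ratio -3.14). Another of these 3, an alpha-mannosidase 2 (Nasvi2EG011620) at -1.01, fell short of the line without VG library a (-0.92) or c (-0.94). Derlin-2 (Nasvi2EG004091), a membrane protein of the export route for misfolded proteins, had the highest ratio, with 8588 in the VG against 1115 in the ovary. The folding sensor UGGT, which puts glucose back on misfolded glycoproteins, was annotated to 2 models. One (Nasvi2EG002066) had 14659.8 in the VG and 3485 in the ovary (4.21-fold), whereas the other (Nasvi2EG002069) had 55.3, 46.6 and 76.7 in the VG libraries against an ovary mean of 1925, the lowest log2 ratio of all lists (-5.01).

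Retrieval and exit had the highest median of the longer lists, 2.69 over 13 genes, with 10 (76.9%) higher in the VG and 2 (15.4%) in the ovary, and this median remained above 0 on totals without venom genes (1.41) and on totals (0.32). The cargo adaptor eca (Nasvi2EG008131) had 18213 in the VG and 1625 in the ovary (11.2-fold), and ERGIC-53 (Nasvi2EG002131), the lectin that carries glycoproteins out of the ER, 17369.9 in the VG and 2240.0 in the ovary (7.75-fold). Of its KDEL receptors, which return escaped proteins to the ER, one called higher in the VG (Nasvi2EG011903, 1.12) fell short of the line without VG library a (0.86), and one short of it (Nasvi2EG011904, -0.86) was past it on the ovary side without library a (-1.06) or c (-1.08). KDEL motif-containing protein 1 (Nasvi2EG002858) was lowest, with 26.7, 40.0 and 24.4 in the VG libraries, all far below the ovary mean of 556. Of 9 genes taken by the stress signalling keywords, 3 (33.3%) were higher in the VG, near the 31.1% of all genes, and 2 (22.2%) in the ovary (median 0.62). These shares describe the keyword list and not the ER sensors alone. The 2 higher in the ovary were annotated as eIF2 alpha kinase 1 (log2 ratio -2.20) and ATF-2 (Nasvi2EG021820, -1.55), neither of them named for the ER. The 3 higher in the VG were ATF6 (Nasvi2EG002774), with 8967 in the VG and 848 in the ovary, IRE1 (Nasvi2EG000789), with 3670.4 in the VG and 544 in the ovary, and XBP1 (Nasvi2EG007701), with 6768 in the VG and 1303 in the ovary. These are sensors of unfolded protein and the transcription factor that IRE1 activates. The third sensor, PERK (Nasvi2EG005280), had 1794 in the VG and 1152 in the ovary, a log2 ratio of 0.64, and the lowest gene of the list was another eIF2 alpha kinase (Nasvi2EG003819), with 102 in the VG against 472 in the ovary. The 9 genes taken by the GPI anchor keywords outside the rule had a median of 0.00, with 2 (22.2%) higher in the VG and 3 (33.3%) in the ovary, which is below and near the shares of all genes. Among these 3, Nasvi2EG001416 (log2 ratio -1.23) is annotated as a MAM domain-containing anchor protein and not as an enzyme of anchor synthesis. A GPI ethanolamine phosphate transferase (Nasvi2EG010435), just short of the line, was past it without VG library b (-1.36). The extremes of these 9 genes were PIG-S (Nasvi2EG007270), with 5233 in the VG and 471 in the ovary, and the GPI inositol-deacylase (Nasvi2EG014371), with 219.9 in the VG and 804 in the ovary.

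**Figure D4:**
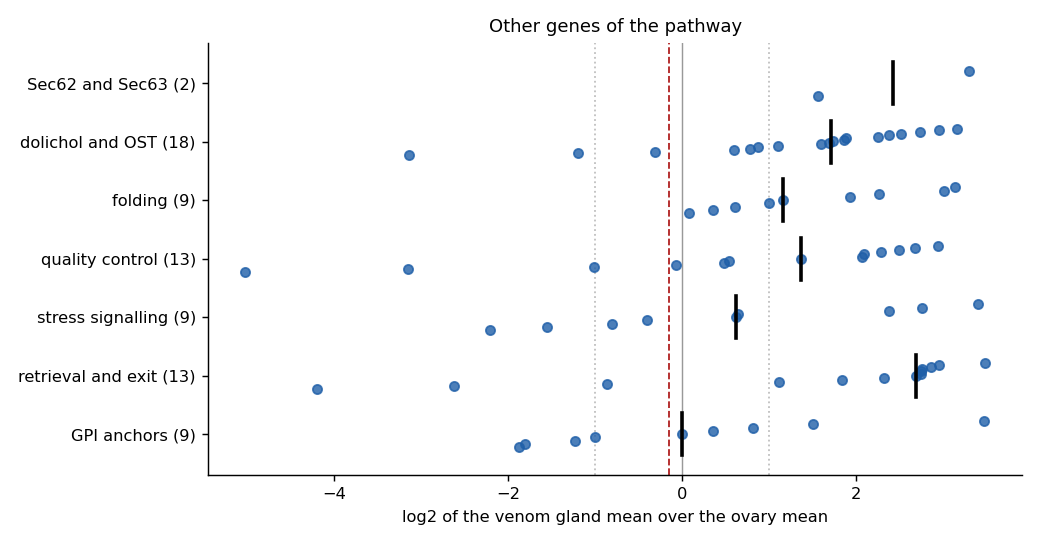
Log2 ratio of VG to ovary means (horizontal axis, DESeq scale) for the 73 other genes of the pathway past the filter, by list from top to bottom with the number of genes in parentheses. Points are genes, black bars list medians, dotted lines 2-fold differences, the grey line 0 and the dashed line the median of all genes with reads in both tissues (-0.14). Retrieval and exit has a median of 2.69 and GPI anchors one of 0.00. Scaling to column totals would move all points to the left by 2.37.

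The position of the steps relative to 0 depended on the scaling. Their order is the same by construction, because each scaling adds the same constant to all log2 ratios. Under centring on all genes, the step medians were 0.14 higher than on the DESeq scale. On totals without venom genes the medians of signal peptide removal (2.25), the translocon (1.08), disulfide formation (0.81) and chaperones and lectins (0.70) stayed above those of the other ER genes (0.07), targeting (-0.08) and mannose transfer and trimming (-0.19). On column totals only signal peptide removal kept a median above 0 (1.16).

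**Figure D5:**
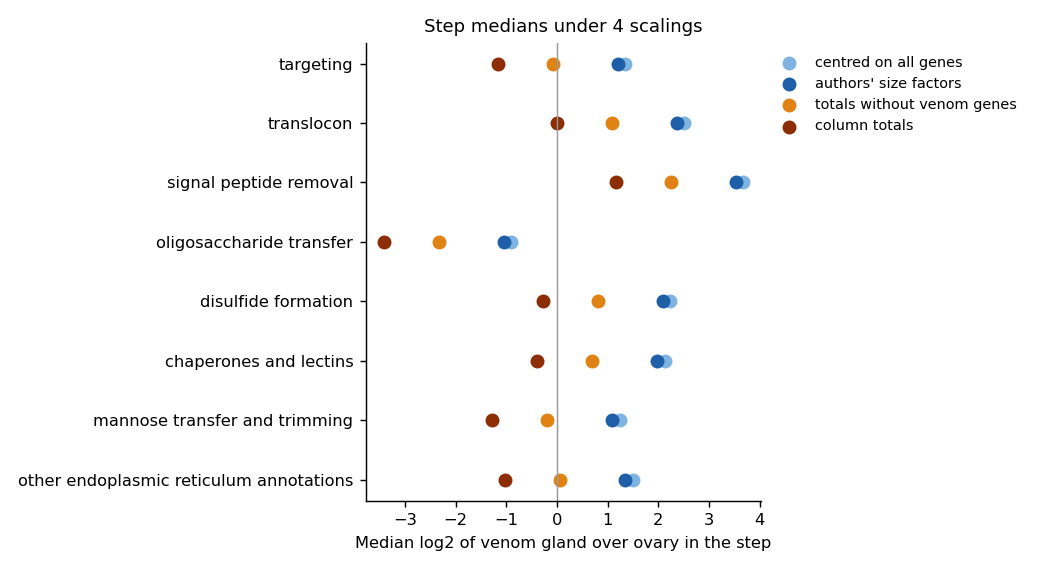
Median log2 of VG over ovary (horizontal axis) of the members past the filter in each step (vertical axis), under 4 scalings: centred on all genes (pale blue), the authors' DESeq size factors (blue), column totals without the 79 venom protein encoding genes (orange) and column totals (brown). The distance between scalings is the same for each step, and signal peptide removal is the only step above 0 under all 4, at 1.16 on column totals.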

How the data were processed

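RNA of both tissues was enriched for poly-A and sequenced as stranded paired-end libraries. Per the study's methods, reads were mapped with TopHat2 and counted with strand on the exons of the official gene set version 2 by HTSeq-count. For the genome build, the version is not given in the sources that were used. The values used are a signal that the authors made with DESeq, the mean of the size-factor-normalised read counts of 3 libraries per tissue, in a deposited table of 36329 genes. The columns were assigned to the tissues through a list of the study that names them (both values equal in 1998 of 1998 genes, relative tolerance 5e-06). The 4 columns with the authors' own comparison (fold change, its log2, p-value and adjusted p-value) were not used.

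Log2 ratios were computed without a pseudocount for genes with a mean of both tissues of at least 10. A tissue without reads was set to a floor of 3 reads over its libraries. No fold is given where both tissues were at or under it. The design foresaw a limma fit on reads per library where these could be recovered for nearly all genes. Each mean is a sum of whole reads times a step per library, which gave size factors of 0.525, 0.450 and 0.287 for the VG libraries and 2.58, 2.47 and 2.30 for the ovary libraries. Means were resolved where a single combination of whole reads matched all printed digits. This held for 97.2% of VG means up to 1300 and 94.2% of ovary means up to 250, and higher ones were not searched. The rate fell at the top of these ranges, to 8.26% of VG means between 1000 and 1300 and 44.4% of ovary means between 100 and 250. In simulated data 283 of 287 VG and 271 of 292 ovary means were resolved. The simulated means were built with the same steps, so that a single match was always the true one. The simulation therefore cannot measure how often a resolved mean is wrong. As abundant genes were not resolved, no test was run and resolved libraries are given as values. Nothing beyond the label of biological replicate says how independent the pools were, and intervals between libraries cover these pools only. Total reads per library are not analysed here. The study reports a lower share of mapped reads for a VG replicate, which it attributes to more rRNA reads. This replicate could not be matched to VG library a, b or c.

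Members came from the keyword rule, and all 68 rows that it matched were kept. For the pathway lists, 5 keyword hits inside other words were left out. Members, steps, pathway lists and markers were chosen with earlier results of these data known. Values are given in full for the members with the highest VG mean, the highest and the lowest log2 ratio of each step, all at least 4-fold apart, all at least 2-fold higher in the ovary, those next to the 2-fold line and the extremes of each pathway list. The other genes named were chosen after their values were seen. Alternatives were 3 other scalings, other filters, pseudocounts of 1 and 10, thresholds of 1.5-fold and 4-fold, narrower and wider member lists, and leaving out each VG library. A non-muscle myosin was left out of the muscle list after its values were seen. Python 3.11.15 was used with matplotlib 3.10.9, numpy 2.4.6 and pandas 2.3.3.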

Additional observations from a re-analysis of the deposited data

How the results depend on the processing

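The scaling was the choice that moved the results most. On column totals, 7 of 61 members were at least 2-fold higher in the VG and 27 were so in the ovary. The members' median log2 ratio was -0.77, against -2.53 for all genes. On totals that leave out venom protein encoding genes, 18 members were higher in the VG and 13 were higher in the ovary. The median was 0.32, against -1.44 for all genes. All genes shifted with the members, and their shares past 2-fold on these scalings are not given here. The counts therefore do not compare the members with other genes. On column totals the log2 ratio changed sign for 26 members called at least 2-fold higher in the VG, and the values were SRP14 -1.25, SRP9 -1.21, SRP68 -1.13, SRP19 -0.67, the SRP receptor beta subunit -0.85, the SRP receptor alpha subunit -0.67, Sec61 beta -0.19, TRAP alpha -0.43, TRAP delta -0.37, signal peptidase subunit 3 (Nasvi2EG033667) -0.11, PDIA6 -0.36, PDIA3 -0.28, PDIA4 -0.0071, the calnexin model Nasvi2EG001077 -1.24, endoplasmin -0.39, the calnexin model Nasvi2EG012769 -0.074, GPI mannosyltransferase 2 -1.36, the unnumbered GPI mannosyltransferase -1.20, the GnT II counterpart -0.84, the GnT I counterpart -0.46, the ER mannosidase -0.74, dolichol-phosphate mannose synthase -0.81, its subunit 3 -0.77, the ALG12 counterpart -1.01, ALG9 -0.54 and ER metallopeptidase 1 -1.02. The step medians that changed sign were targeting -1.17, translocon -0.0059, disulfide formation -0.28, chaperones and lectins -0.39, mannose transfer and trimming -1.28 and other ER genes -1.02. On totals without venom genes 6 such members changed sign, namely SRP14 -0.16, SRP9 -0.12, SRP68 -0.042, the calnexin model Nasvi2EG001077 -0.15, GPI mannosyltransferase 2 -0.27 and the unnumbered GPI mannosyltransferase -0.11, and the step medians targeting -0.081 and mannose transfer and trimming -0.19. Centring on all genes kept all 61 members and 8 steps on their side of 0.

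A 1.5-fold threshold counted 8 members higher in the ovary, and the share of all genes at that threshold is not given here. A 4-fold threshold counted 22 of 61 higher in the VG, against 20.8% of all genes. It counted 1 higher in the ovary, the gene without VG reads. The count of members higher in the ovary was 3 without the members matched only by endoplasmic reticulum, 3 without those matched only by mannosyl, and 3 without second models and proteins that act outside the ER, a choice made after seeing the data. With the 73 pathway genes added to the 61 members, 83 genes were at least 2-fold higher in the VG, and 17 were so in the ovary. The shares of all genes at this threshold were 31.1% and 34.2%. Leaving out a VG library, also chosen after seeing the data, moved the call of 8 of the 20 members with resolved reads, given above with the member: SRP14, ostc-B, TXNDC10, glucosidase I, ER aminopeptidase 2, the GnT III counterpart and the 2 GPI mannosyltransferases called higher in the VG. For the other members libraries could not be left out. Among the pathway lists it moved the call of 8 of 30 genes with resolved reads, also given with each gene. No paired analysis was possible because the table holds tissue means and the resolved libraries carry no replicate number. The planned limma fit and its alternatives were not run, since reads could be resolved in both tissues only for low means. Depth limits the low genes most, because 3 reads over the VG libraries correspond to 3.49 normalised counts and 3 over the ovary libraries to 0.435.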

Other observations

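Several functions were annotated to neighbouring gene models that had ratios of opposite sign. The receptors that return escaped ER proteins through their retention signal were annotated to a run of neighbouring IDs. Of these, Nasvi2EG011912 had 13691 normalised counts in the VG and 2047 in the ovary, and Nasvi2EG011905 had 1164 in the VG and 174 in the ovary. Nasvi2EG011909 ran the other way, with 55.3, 17.8 and 38.3 in VG libraries a, b and c against an ovary mean of 228, and Nasvi2EG011904 had 85.8, 31.1 and 87.1 in the VG libraries against 152, 112 and 106 in the ovary libraries, without overlap. Where such models share sequence, their counts depend on how reads with several matches were treated. The study lists reads of multiple alignments apart from the assigned reads. Their effect on these models was not tested. Among the members, the GnT II model Nasvi2EG006716, GPI mannosyltransferase 1 (Nasvi2EG007770) and the mannosidase IB model Nasvi2EG013531 had no read in any library, while a member of the same family with an ID at most 2 numbers away had reads in both tissues.

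Among the pathway genes with resolved VG reads, the largest ratio of VG library b to the higher of the other two was that of the nucleotide exchange factor SIL1 (Nasvi2EG003431), which recharges the Hsp70 of the ER, with 158, 1026 and 188 normalised counts in VG libraries a, b and c against an ovary mean of 358. Dehydrodolichyl diphosphate synthase (Nasvi2EG004415), which makes the dolichol chain, had 517, 1992 and 418 in the VG libraries against an ovary mean of 453. Without library b the log2 ratio was -1.05 for SIL1, against 0.36 with all libraries, and 0.04 for the synthase, against 1.11. Both genes were chosen after their values were seen.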
